A study of Mus musculus with 10 samples.

Results

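Gpam, Lpin1, Lpcat3 and Acsl5 encode 4 enzymes that attach fatty acids to glycerol or phospholipids, or prepare the substrates for that step. They were followed in liver RNA of male mice on Affymetrix MG_U74Av2 arrays, on which each transcript is read by a set of short oligonucleotide probes. The platform annotation gave exactly 1 single-gene probe set to each of them, so none had another probe set as a check, and they are 4 of the 8251 genes measured. There were 5 groups. TgSREBP-1a mice expressed the active nuclear form of human SREBP-1a, and TgSREBP-2 mice that of human SREBP-2. Both lines, and the wild type littermates that served as their controls, were aged 12 to 16 weeks and ate a diet high in protein and low in carbohydrate for 2 weeks, which was chosen to drive the transgenes strongly. These controls are called the high-protein wild type and those of the Scap-/- mice the chow wild type. The Scap-/- mice carried MX1-Cre and lost Scap, the escort that SREBPs need for their activation, while their controls were wild type. These mice were 10 to 12 weeks old, ate Teklad chow, and both genotypes received 4 injections of polyinosinic-polycytidylic acid, the inducer of the Cre, with livers taken 14 days after the last. The promoter of MX1-Cre responds to interferon, which many liver cell types sense, so the deletion need not be restricted to hepatocytes. The transgenes are known to be driven by the promoter of the gluconeogenic gene Pck1.

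Acsl5, Gpam and Lpin1 act along one route, and Lpcat3 remodels phospholipids. Long-chain fatty acids are first joined to coenzyme A, a step for which Acsl5 is one of several synthetases in liver. Gpam, the glycerol-3-phosphate acyltransferase of the mitochondrial outer membrane, then starts glycerolipid synthesis by adding the first acyl chain. Lpin1 removes the phosphate from phosphatidate to give diacylglycerol, the branch point to triglyceride and to phosphatidylcholine, and also works as a transcriptional coregulator during fasting. Lpcat3 is a lysophospholipid acyltransferase that places polyunsaturated chains into membrane phospholipids. SREBP-1 is best known in liver for fatty acid synthesis and SREBP-2 for cholesterol synthesis, and both bind sterol regulatory elements, usually beside sites for NF-Y or Sp1. The title of the study gives its aim as the search for direct SREBP targets.

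The stretches before the transcription start sites are shown because promoters are where such elements lie. RefSeq windows from 250 bases before to 50 bases after a start site (build GRCm38.p6) were found for all 4 genes, 5 windows in all since Gpam has 2 start sites in the table. Below are the 250 bases before the start of 4 of these windows, written 5′ to 3′ on the gene's strand. Capitals mark matches, on either strand, to TCACNCCA (a loose form of the sterol regulatory element), to CCAAT (the NF-Y core) or to GGGCGG (an Sp1 core).
Gpam, start site 1, chr19:55127239-55127488, minus strand: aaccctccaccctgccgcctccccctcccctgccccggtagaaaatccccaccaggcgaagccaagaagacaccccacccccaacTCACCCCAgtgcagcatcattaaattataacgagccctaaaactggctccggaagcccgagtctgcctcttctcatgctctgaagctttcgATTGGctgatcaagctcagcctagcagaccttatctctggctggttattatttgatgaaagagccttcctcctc
Lpin1, chr12:16610967-16611216, minus strand: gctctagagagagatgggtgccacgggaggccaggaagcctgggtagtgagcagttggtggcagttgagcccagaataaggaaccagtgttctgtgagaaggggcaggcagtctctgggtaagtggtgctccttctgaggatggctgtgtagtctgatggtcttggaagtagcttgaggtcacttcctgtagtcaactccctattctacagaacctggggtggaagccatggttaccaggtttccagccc
Lpcat3, chr6:124662854-124663103, plus strand: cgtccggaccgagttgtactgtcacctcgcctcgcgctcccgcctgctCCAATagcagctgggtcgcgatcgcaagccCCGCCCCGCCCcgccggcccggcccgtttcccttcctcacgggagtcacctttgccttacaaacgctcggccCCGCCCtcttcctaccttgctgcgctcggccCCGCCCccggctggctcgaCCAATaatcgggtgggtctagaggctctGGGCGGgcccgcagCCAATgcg
Acsl5, chr19:55253119-55253368, plus strand: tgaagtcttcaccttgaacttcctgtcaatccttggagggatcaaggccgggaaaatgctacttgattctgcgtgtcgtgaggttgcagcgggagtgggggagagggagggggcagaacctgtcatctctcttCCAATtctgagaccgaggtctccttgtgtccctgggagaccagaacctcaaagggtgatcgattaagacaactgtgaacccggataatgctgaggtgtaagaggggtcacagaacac

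Only the upstream Gpam window of these 5 held the loose sterol element, 165 to 158 bases before the start, with an inverted CCAAT 74 to 70 bases before it. TCACNCCA was present in 4.36% of the 32851 windows of all genes. The stricter TCACCCCAC, which contains it, was in none of the 5 windows and in 0.551% of all. Lpcat3 had 4 CCAAT and 6 GGGCGG matches, 1 of each after the start and so outside the printed bases, Acsl5 had 1 CCAAT, and the second Gpam window, at chr19:55099478-55099727 on the minus strand, had 1 GGGCGG. The Lpin1 window had no match to any motif searched. It lies within the RefSeq span of the gene (chr12:16535669-16653903, minus strand), away from its 5′ end. Other start sites of Lpin1 were not searched, so the promoter at that end was not read. The Acsl5 window likewise begins past the first base of its gene, chr19:55251861. CCAAT stood in 37.4% and GGGCGG in 35.7% of all windows, so neither is rare. The E-box CACGTG, found in 7.15% of all windows, was in none of the 5. A match is a run of letters and was not tested as a binding site, and a motif that is missing here may lie outside the window.

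**Figure D1:**
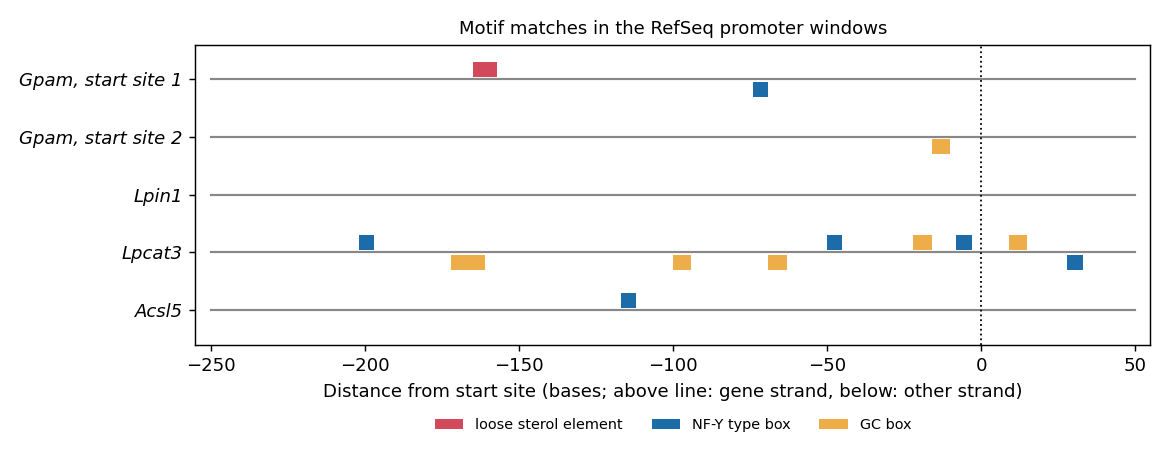
Matches to the motifs in the 5 RefSeq windows of the 4 genes, by distance in bases from the start site (x axis). Boxes above a line lie on the gene's strand and boxes below it on the other strand. The loose sterol element appears once, in the window of the first Gpam start site, and Lpcat3 carries the most matches of the other kinds.

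Each group was 1 RNA pool of 5 mice, hybridised to 2 arrays, so the p-values below rest on the spread of repeated hybridisations: they compare pools, and the error between mice is not in them. Scap and the human transgenes themselves were not analysed here, so the genotypes could not be checked on the altered genes. As a check of the labels, 13 measured cholesterol synthesis genes were counted. Of these, 12 rose in TgSREBP-1a, 13 rose in TgSREBP-2 and 11 fell in Scap-/-. The shares of all genes called that way were 4.78%, 2.18% and 0.921%. The list was chosen with earlier results of these data known, and these counts do not tell the 2 transgenic pools apart. The summed signal of 7 hepatocyte markers lay between 15.05 and 15.24 log2 on all 10 arrays, so liver transcripts were high in every pool. Duplicate arrays differed more in the high-protein pools, where 55 to 151 genes per pool stood 1.5-fold or more apart, than in the chow-fed pools, where 0 to 6 did. A gene was called when its limma adjusted p was under 0.05 and it differed by at least 1.5-fold, and errors after ± are moderated standard errors of the log2 difference (n = 2 arrays per pool). Single hepatocyte markers did move: in TgSREBP-1a Tat was called higher (0.77 ± 0.11) and Ttr lower (-1.37 ± 0.10). Limma called none of the 7 in TgSREBP-2 or in Scap-/-, with 1 and 3 at an unadjusted p under 0.05. In high-protein over chow wild type, Fgb was called higher (0.73 ± 0.13) and Ttr lower (-0.69 ± 0.10). In pooled tissue, fewer cells of a type and less RNA per cell cannot be told apart.

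Acsl5, the acyl-CoA synthetase, was higher in both transgenic pools and lower in the Scap-/- pool. Its log2 signal was 11.22 and 10.82 in TgSREBP-1a and 9.92 and 9.67 in TgSREBP-2, against 9.07 and 8.80 in wild type on the same diet. It was 8.57 and 8.66 in Scap-/-, against 9.44 and 9.42 in chow wild type. No array of a mutant pool overlapped the arrays of its own wild type pool, but how many of all genes separated likewise was not counted. Acsl5 rose 4.25-fold in TgSREBP-1a (log2 difference 2.09 ± 0.14, adjusted p = 2.99e-06) and 1.82-fold in TgSREBP-2 (0.86 ± 0.14, adjusted p = 0.00524). It fell 1.76-fold in Scap-/- (-0.81 ± 0.14, adjusted p = 0.01). Of these calls for Acsl5, that in Scap-/- was the most often lost with an array left out. Without any 1 of the 4 arrays compared it missed the threshold, with differences of -0.86 to -0.77, although the duplicates of both chow-fed pools lay close together. When limma fitted only the arrays of these 2 pools, the decrease was called (adjusted p = 5.83e-06). With the first TgSREBP-2 array left out, the TgSREBP-2 rise missed the threshold as well (0.74).

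Gpam, which commits fatty acids to glycerolipids, gave the largest rise of the 4 in TgSREBP-1a. Its log2 signal was 11.62 and 11.67 in TgSREBP-1a and 10.08 and 10.01 in TgSREBP-2, against 9.24 and 9.10 in their wild type littermates. In Scap-/- it was 9.15 and 9.32, against 9.86 and 9.95 in chow wild type. The duplicates lay close together in every pool, and each mutant pool was clear of its wild type pool, a separation not counted over all genes. The rise was 5.56-fold in TgSREBP-1a (2.47 ± 0.09, adjusted p = 3.27e-08), the 19th highest difference of 8251 genes, and 1.84-fold in TgSREBP-2 (0.88 ± 0.09, adjusted p = 0.000257). In Scap-/- Gpam fell 1.60-fold (-0.67 ± 0.09, adjusted p = 0.00186). The 3 calls held without any 1 array.

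Lpin1, the phosphatidate phosphatase, was the exception among the 4. Its log2 signal was 9.78 and 9.31 in TgSREBP-1a and 8.74 and 8.34 in TgSREBP-2, against 8.25 and 8.32 in their wild type littermates. In Scap-/- it was 7.47 and 7.51, against 7.14 and 7.04 in chow wild type. TgSREBP-1a stood clear of wild type, whereas the second TgSREBP-2 array lay just above the wild type arrays, by 0.02, and the Scap-/- arrays were above those of their wild type. Lpin1 rose 2.39-fold in TgSREBP-1a (1.26 ± 0.16, adjusted p = 0.000283). It was not called in TgSREBP-2, at 0.26 ± 0.16 (95% interval -0.09 to 0.61, adjusted p = 0.454), a difference that was 0.06 without the first TgSREBP-2 array and 0.46 without the second. It was not called in Scap-/- either, at 0.40 ± 0.16 (95% interval 0.05 to 0.75, adjusted p = 0.385). That value lay on the other side of 0 from those of the remaining 3 enzymes. Whether the Lpin1 difference itself differed from theirs was not tested.

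Lpcat3, the phospholipid remodelling enzyme, moved in all 3 comparisons with wild type. Its log2 signal was 9.44 and 9.14 in TgSREBP-1a and 8.79 and 8.68 in TgSREBP-2, against 7.93 and 7.83 in their wild type littermates. In Scap-/- it was 7.20 and 7.26, against 8.07 and 8.04 in chow wild type. The 5 pools did not overlap in Lpcat3 signal, a separation that was not counted over all genes, and Scap-/- gave its lowest level. Lpcat3 rose 2.66-fold in TgSREBP-1a (1.41 ± 0.10, adjusted p = 5.7e-06) and 1.81-fold in TgSREBP-2 (0.86 ± 0.10, adjusted p = 0.00081), and fell 1.77-fold in Scap-/- (-0.82 ± 0.10, adjusted p = 0.0013). These calls held without any 1 array.

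**Figure D2:**
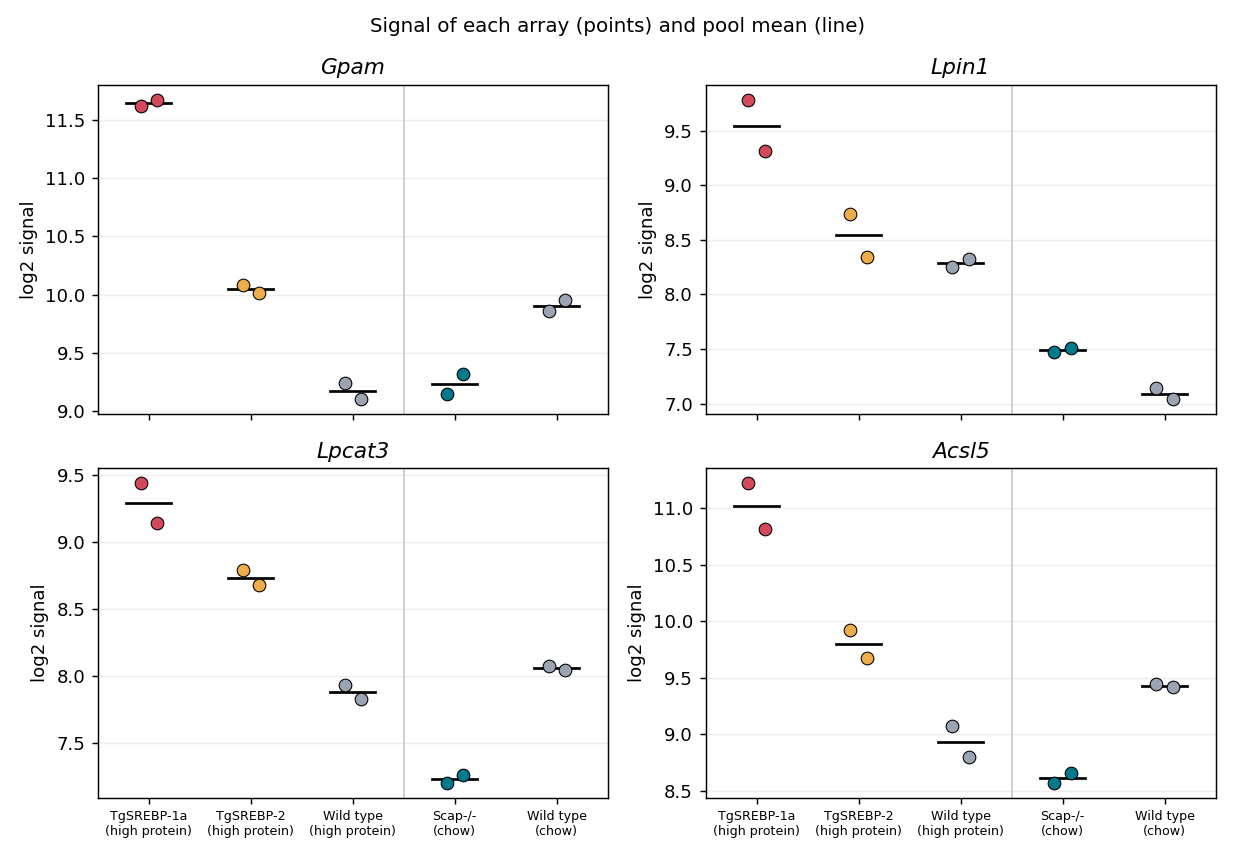
Log2 signal (y axes) of Gpam, Lpin1, Lpcat3 and Acsl5 on each array, by pool. Points are arrays, replicate 1 on the left, lines are means of the 2 arrays, and the vertical line separates the high-protein pools from the chow-fed ones. TgSREBP-1a is the highest pool for all 4 genes, and for Lpin1 the 2 chow-fed pools are the lowest.

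Counted together, 4 of the 4 enzymes were called higher in TgSREBP-1a, where 4.78% of all genes were called higher and 7.37% either way. In TgSREBP-2, 3 of 4 were called higher, where 2.18% of all genes were, and 2.57% either way. In Scap-/-, 3 of 4 were called lower, against 0.921% of all genes, and 1.66% were called either way. The 2 transgenic comparisons share their wild type arrays and are given side by side for that reason. The 4 enzymes were chosen with earlier results of these data known, so these counts describe them and are not a test.

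Setting the transgenic pools against each other showed which enzymes differed between these pools. All 4 enzymes were higher in TgSREBP-1a than in TgSREBP-2 on both arrays of each pool. How many of all genes separated in this way was not counted. Of the 4 enzymes 3 were called, where 2.24% of all genes were called higher and 5.19% either way. Gpam was 3.03-fold higher (1.60 ± 0.09, adjusted p = 1.02e-06), Acsl5 2.34-fold (1.22 ± 0.14, adjusted p = 0.000201) and Lpin1 2.00-fold (1.0 ± 0.16, adjusted p = 0.00188). Lpcat3 differed by 0.55 ± 0.10 (95% interval 0.32 to 0.78, adjusted p = 0.00589), or 1.47-fold, short of the 1.5-fold threshold. It passed that threshold without the second TgSREBP-1a array (0.71) or the first TgSREBP-2 array (0.61). Of the 8 measured genes of a fatty acid synthesis list 7 were called higher in TgSREBP-1a, with a median of 1.03, led by Elovl6 at 1.66 ± 0.12. Of the 13 cholesterol synthesis genes 7 were called lower, against 2.95% of all genes, with a median of -0.68, led by Msmo1 at -2.10 ± 0.19. The median of all genes was 0.00. The values of the 4 enzymes therefore lay on the side of the fatty acid genes in this comparison. The amounts of the 2 nuclear proteins were not analysed here. Each line was 1 pool, so the SREBP expressed, its amount and other differences between the lines cannot be told apart.

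**Figure D3:**
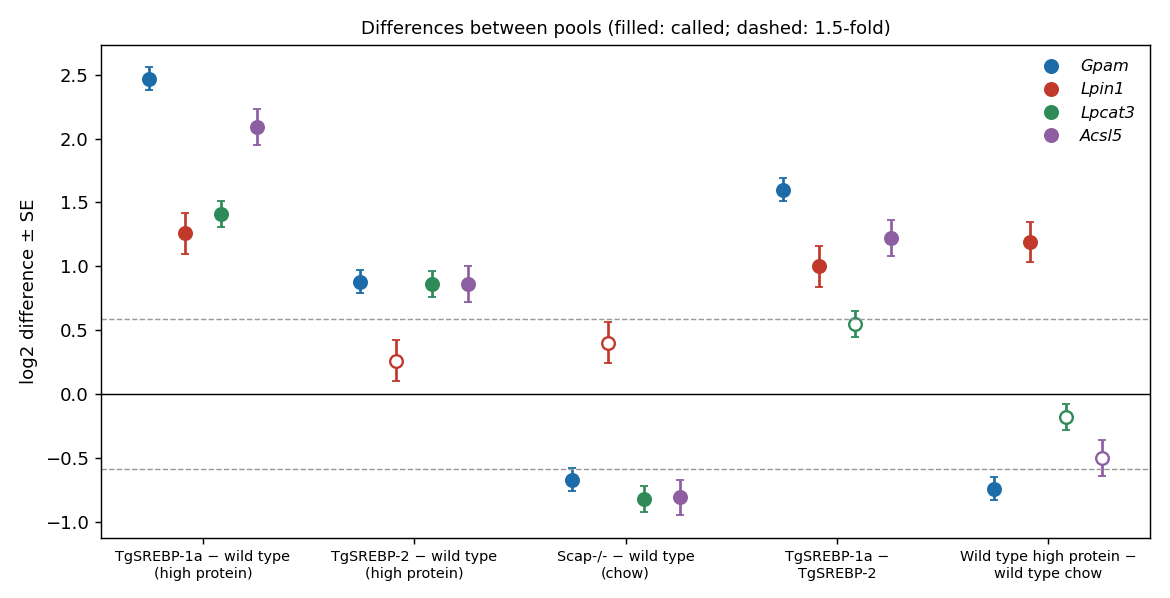
Log2 differences (y axis, ± moderated standard error, n = 2 arrays per pool) of the 4 enzymes in 5 comparisons of pools. Filled points are called, open points are not, and dashed lines mark 1.5-fold. Lpin1 is open for TgSREBP-2 and for Scap-/-, and it is the only 1 of the 4 above 0 between the wild type pools.

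Between the wild type pools, Lpin1 and Gpam moved in opposite directions. The 2 pools differed in diet, age and injections, which cannot be told apart. Lpin1 was 2.29-fold higher in the high-protein pool (8.25 and 8.32 against 7.14 and 7.04, difference 1.19 ± 0.16, adjusted p = 0.000818), the 22nd highest difference of all genes, where 1.28% of genes were called higher. Gpam was 1.67-fold lower (9.24 and 9.10 against 9.86 and 9.95, difference -0.74 ± 0.09, adjusted p = 0.000458), where 4.34% of genes were called lower and 5.62% either way. With quantile normalization the Gpam difference was -0.56, under 1.5-fold. Acsl5 was at -0.50 ± 0.14 (adjusted p = 0.03), short of 1.5-fold, but it was called at -0.64 without the first high-protein array. Lpcat3 was at -0.18 ± 0.10 (95% interval -0.41 to 0.05, adjusted p = 0.242).

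Most cholesterol synthesis genes and some fatty acid synthesis genes were lower in the high-protein pool too. Of the 13 cholesterol genes 11 were called lower, against 4.34% of all genes, with a median of -1.72, led by Hmgcs1 at -2.57 ± 0.21. Of the 8 fatty acid genes 3 were called lower, with a median of -0.44, namely Me1 (-2.76 ± 0.13), Fasn (-1.67 ± 0.11) and Acly (-0.93 ± 0.11). None of either list was called higher, so the Gpam value had the sign of these called genes and the Lpin1 value the opposite sign.

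Other genes that respond to fasting were set beside Lpin1 in this comparison. Of 8 measured genes of a list of fasting and PPAR alpha genes, 3 were called higher in the high-protein pool, where 1.28% of all genes were. They were Igfbp1 (1.33 ± 0.14), Pck1 (1.07 ± 0.12) and Ppara (0.97 ± 0.13). None was called lower, where 4.34% of all genes were. In TgSREBP-1a, where Lpin1 was also higher, 1 of the 8 rose, Igfbp1 by 1.40 ± 0.14, against 4.78% of all genes. There 3 fell, against 2.59% of all genes, Pck1 by 1.66 ± 0.12, G6pc by 1.28 ± 0.08 and Ppara by 1.24 ± 0.13. In TgSREBP-2, where 2.57% of all genes were called either way, none of the 8 was called by limma, with 1 at an unadjusted p under 0.05. In Scap-/- none of the 8 was called by limma, with 3 at an unadjusted p under 0.05.

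The order of levels differed between the enzymes. Gpam was lowest in high-protein wild type and in Scap-/-, whose arrays overlapped, and then increased through chow wild type and TgSREBP-2 to TgSREBP-1a. TgSREBP-2 and chow wild type were within 0.14 of each other for Gpam, with no overlap. Acsl5 and Lpcat3 shared 1 order, from Scap-/- through high-protein wild type, chow wild type and TgSREBP-2 to TgSREBP-1a, and no neighbouring pools overlapped. For Lpcat3 the smallest step was that between the wild type pools, at 0.18. Lpin1 ran from chow wild type through Scap-/-, high-protein wild type and TgSREBP-2 to TgSREBP-1a, with 0.02 between the nearest arrays of TgSREBP-2 and its wild type pool. The arrays of a pool are repeats of the same RNA, and how many of all genes had pools without overlap was not counted.

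The other genes of glycerolipid and phospholipid synthesis were counted beside the 4 enzymes. The list held 73 genes, of which 41 were measured, 37 beside the 4 enzymes. Of these 37, 2 rose and 2 fell in TgSREBP-1a, where 4.78% of all genes were called higher and 2.59% lower. Of the same genes 3 rose and 0 fell in TgSREBP-2, where 2.18% of all genes were called higher and 0.388% lower. In Scap-/-, 0 rose and 2 fell, where 0.739% of all genes were called higher and 0.921% lower. The medians of the 37 were -0.06, 0.03 and -0.01 against -0.03, -0.02 and 0.00 for all genes. By an unadjusted p under 0.05, 16, 9 and 5 of the 37 passed.

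Among the acyl-CoA synthetases, Acsl4, which prefers arachidonate, rose beside Acsl5. It was higher by 1.77 ± 0.28 in TgSREBP-1a (adjusted p = 0.00147) and by 1.41 ± 0.28 in TgSREBP-2 (adjusted p = 0.0155), the second of which was lost without the second wild type array or the first TgSREBP-2 array (1.19 and 1.21, adjusted p = 0.104 and 0.151). On its dimmer probe set the TgSREBP-2 rise was 0.59 (adjusted p = 0.022), at the edge of 1.5-fold. In Scap-/- Acsl4 stood at -0.97 ± 0.28 (adjusted p = 0.144) and was not called. Slc27a5, which activates bile acids and very long chains, fell in Scap-/- by 0.69 ± 0.10 (adjusted p = 0.00351), a call that needed the second array of both pools (adjusted p = 0.0516 without that of Scap-/-, 0.0565 without that of chow wild type). The other 4 measured synthetases, Acsl5 and these 2 aside, were not called in these 3 comparisons.

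At the acylation and phosphatase steps, the relatives of Gpam and Lpin1 differed from each other. None of the 5 other measured glycerol phosphate and lysophosphatidate acyltransferases was called in these 3 comparisons, with differences between -0.27 and 0.31. Both measured diacylglycerol and monoacylglycerol acyltransferases, Dgat1 and Mogat2, were uncalled, at -0.21 to -0.01. Lpin2, a second lipin, rose by 0.63 ± 0.13 in TgSREBP-1a and by 0.62 ± 0.13 in TgSREBP-2. On its dimmer probe set these were 0.12 and 0.00, and neither was called. The TgSREBP-1a value fell to 0.44 without the first TgSREBP-1a array (adjusted p = 0.0545). The TgSREBP-2 call was lost without any of 3 of the 4 arrays, at 0.47 to 0.65 (adjusted p = 0.0774 to 0.209). Between the wild type pools Lpin2 was higher in the high-protein pool by 1.11 ± 0.13 (adjusted p = 0.000366), as Lpin1 was, but by 0.19 on its dimmer probe set. Gpd2, the mitochondrial glycerol-3-phosphate dehydrogenase, was lower there by 0.78 ± 0.11 (difference -0.78, adjusted p = 0.00113), or -0.58 and just under 1.5-fold with 32 added before taking log2.

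In phospholipid synthesis, Pcyt2, the rate-setting enzyme of phosphatidylethanolamine synthesis, followed the SREBP pools. It rose by 0.68 ± 0.08 in TgSREBP-2 (adjusted p = 0.000758), or 0.47 and under 1.5-fold with quantile normalization, and fell by 0.80 ± 0.08 in Scap-/- (adjusted p = 0.000283). In TgSREBP-1a it was at 0.29 ± 0.08 (adjusted p = 0.0358), short of 1.5-fold. Chpt1, a choline phosphotransferase, fell in TgSREBP-1a by 0.80 ± 0.21 (adjusted p = 0.024). This call was lost without either wild type array or the second TgSREBP-1a array, at -0.82 to -0.49 (adjusted p = 0.0731 to 0.124). Gpd1, which makes glycerol 3-phosphate, fell there by 0.60 ± 0.10, at the edge of 1.5-fold, by 0.22 on its dimmer probe set and by 0.47 without the second wild type array. The 4 other measured lysophospholipid acyltransferases beside Lpcat3 were uncalled against wild type. Of the 37, 4 were called lower in TgSREBP-1a than in TgSREBP-2, where 2.95% of all genes were. They were Chpt1 (-1.21 ± 0.21), Lpgat1 (-0.72 ± 0.11), Lcat (-0.71 ± 0.18, but 0.05 on its dimmer probe set) and the glycerol channel Aqp9 (-0.66 ± 0.12). Chpt1 missed the threshold when only the arrays of these 2 pools were fitted (adjusted p = 0.0516). Lpgat1 was at -0.41 and uncalled on its dimmer probe set. Lcat was uncalled without the second TgSREBP-1a or the first TgSREBP-2 array (-0.51 and -0.46), and so was Aqp9 (-0.58 and -0.50).

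**Figure D4:**
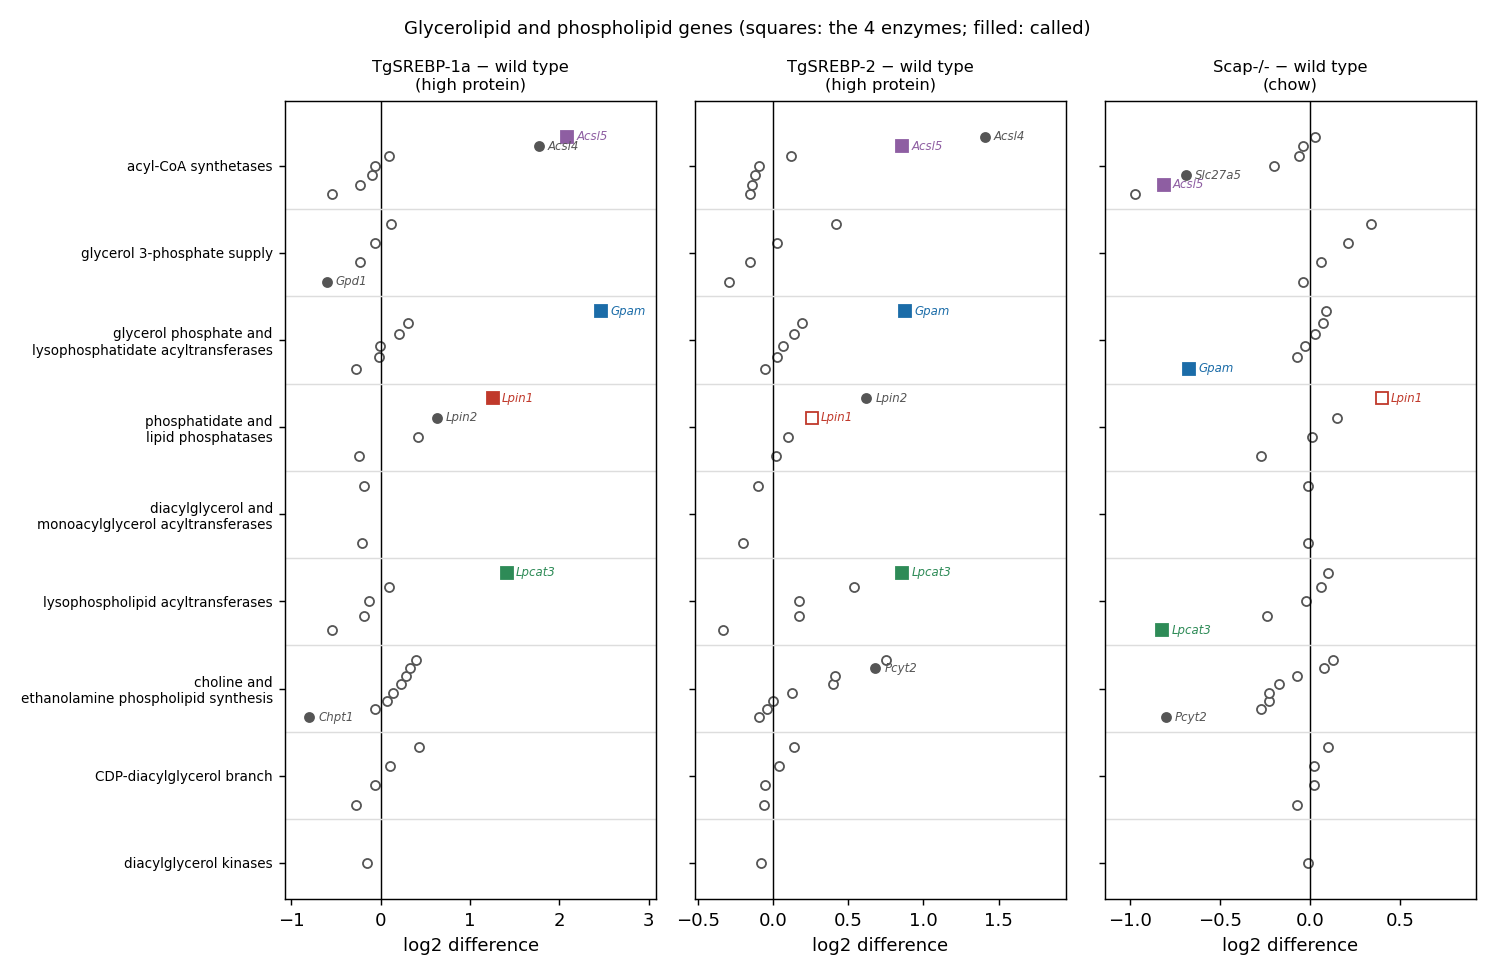
Log2 differences (x axes) of the 41 measured genes of glycerolipid and phospholipid synthesis in 3 comparisons with wild type, by role. Squares are the 4 enzymes, filled symbols are called, and called genes and the 4 enzymes are named. Gpam, Acsl5 and Lpcat3 stand to the right in both transgenic panels and to the left in the Scap-/- panel.

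Gpam and Acsl5 were each other's closest genes on the array. Likeness was measured as the root mean square difference between the pool means of 2 genes over the 5 pools, each gene centred on its own mean, and for this pair it was 0.17 log2. After Acsl5, the genes most like Gpam were Pdk1, a kinase that inhibits pyruvate dehydrogenase (0.22), and Ddit4, an inhibitor of mTORC1 (0.23). For Acsl5 they were Pdk1 (0.23) and Pstpip2 (0.23). Lpcat3 was most like the fatty acid elongase Elovl5 (0.16), the mitochondrial citrate carrier Slc25a1 (0.19) and Acsl4 (0.20). Lpin1 was less closely matched, by the kinase Mknk2 (0.24), follistatin, Fst (0.27), and Lpin2 (0.33). Pearson correlations over the 10 arrays, which share the 5 pools and are given as a description, were 0.97 for Gpam with Acsl5, 0.96 for Lpcat3 with Acsl5 and 0.72 for Gpam with Lpin1.

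The matches did not all share the Scap-/- decrease. Elovl5 stood at 1.31 for TgSREBP-1a, 0.39 for TgSREBP-2 (not called) and -0.97 for Scap-/-, and Slc25a1 in the same order at 1.19, 0.92 and -0.86, so the Scap-/- value was low for both, as for Lpcat3. Both Scap-/- calls depended on single arrays. Elovl5 lost its call without the first Scap-/- array (adjusted p = 0.0506) or the second of its wild type pool (adjusted p = 0.0517), and Slc25a1 without that wild type array (adjusted p = 0.0514). Ddit4 stood at 2.46, 0.43 and -0.20 and Pdk1 at 1.89, 0.28 and -0.69, with only the first value of each called. Mknk2, the closest to Lpin1, was at 1.72, 0.98 and 0.43, of which the last was not called, and on its dimmer probe set the TgSREBP-1a value was 0.98, still called, and the TgSREBP-2 value 0.39, which was not.

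**Figure D5:**
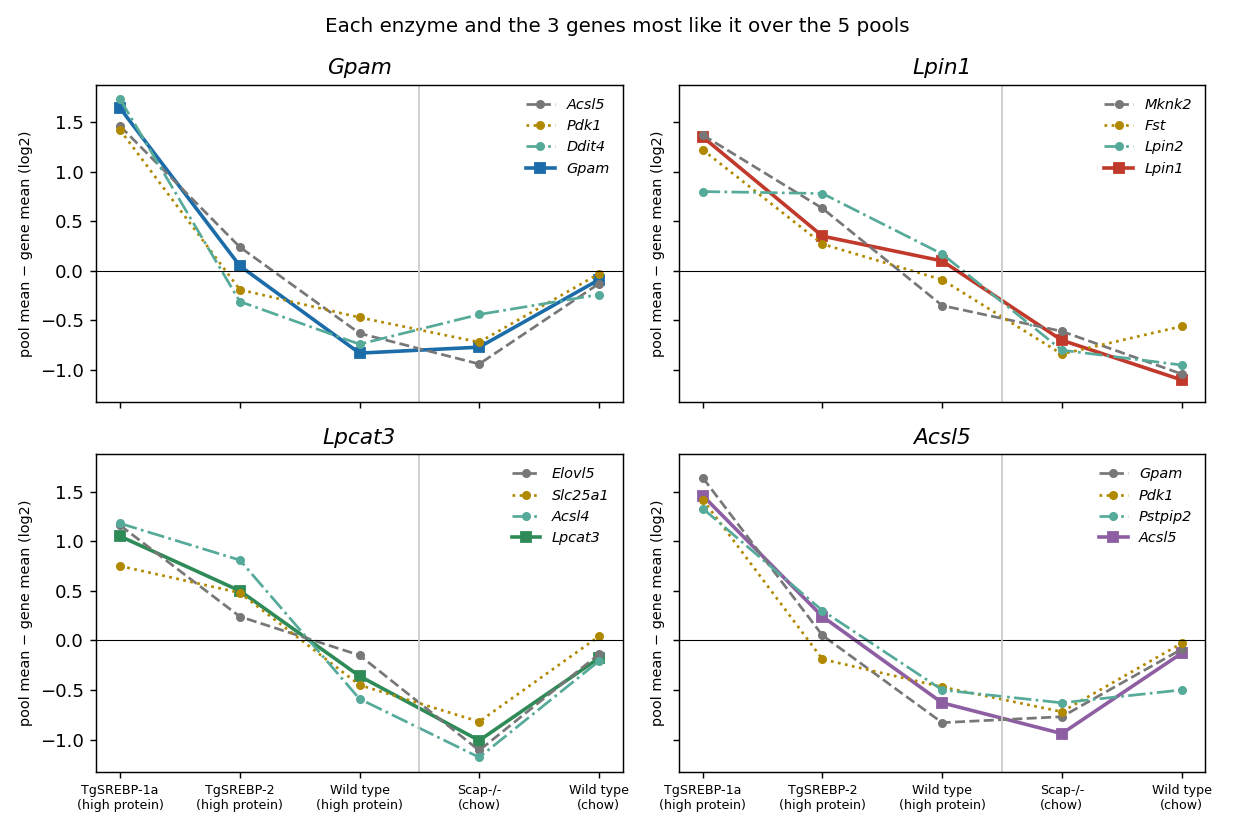
Pool means of each enzyme and of the 3 genes most like it, in log2 after subtracting each gene's mean over the 5 pools (y axes). The heavy line with squares is the enzyme, and the vertical line separates the high-protein pools from the chow-fed ones. Gpam and Acsl5 appear in each other's panels, while the genes beside Lpin1 run farther from it.

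Gpam and Acsl5 are also neighbours in the genome. In RefSeq on GRCm38.p6 Gpam spans chr19:55067635-55127319 on the minus strand and Acsl5 chr19:55251861-55296628 on the plus strand, so they point away from each other across 125 kb. Wholly between them lie the protein-coding genes Tectb and Gucy2g and the microRNA gene Mir6715, and the unmeasured long noncoding RNA gene Gm31418 begins at the Gpam start and reaches into the gap. Tectb, the 1 gene between them that was measured, was not called, at 0.18 for TgSREBP-1a, -0.03 for TgSREBP-2 and 0.06 for Scap-/-. Past Acsl5, Zdhhc6 and Vti1a were not called either, at -0.42, -0.02 and -0.08 for Zdhhc6 and 0.06, 0.00 and 0.16 for Vti1a. The signal levels of these neighbours were not analysed here, and a gene with little signal in liver could not show a shared pattern. Whether the pattern of Gpam and Acsl5 extends to the genes beside them was therefore not tested. Lpin1 spans chr12:16535669-16653903 on the minus strand and Lpcat3 chr6:124663094-124704716 on the plus strand. Where in these genes the probes lie was not analysed here.

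Markers of other cell types and tissues moved in some of these comparisons. Exocrine pancreas markers, 5 measured, had a summed log2 signal of 9.79 to 9.82 in TgSREBP-1a and 14.12 to 14.13 in TgSREBP-2, against 13.66 to 13.69 in their wild type pool, and 10.44 to 10.47 in Scap-/-, against 12.64 to 12.65 in chow wild type. All 5 were called lower in TgSREBP-1a and in Scap-/-, and 2 were called higher in TgSREBP-2. Over all genes, 2.59% were called lower in TgSREBP-1a, 0.921% lower in Scap-/- and 2.18% higher in TgSREBP-2. The part of pancreas transcripts in the enzymes' differences was not tested. Skeletal muscle, where Lpin1 is abundant, was followed by 8 markers, of which Acta1 and Tnnt3 were higher in Scap-/- (2.69 ± 0.14 and 0.83 ± 0.15) and in high-protein over chow wild type (2.61 ± 0.14 and 0.98 ± 0.15). In TgSREBP-1a, where Lpin1 rose, both were lower (-3.11 ± 0.14 and -0.81 ± 0.15). The other 6 markers were not called in these 3 comparisons. They lay between 0.02 and 0.18 in Scap-/-, between 0.10 and 0.38 in high-protein over chow wild type, and between -0.57 and -0.06 in TgSREBP-1a. The summed muscle signal was 10.43 to 10.51 in TgSREBP-1a and 10.86 to 10.93 in TgSREBP-2, against 10.93 to 11.04 in their wild type pool, and 10.95 to 10.97 in Scap-/-, against 10.45 to 10.52 in chow wild type. Its part in the Lpin1 values between the chow-fed pools and between the wild type pools was not tested.

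Adipocyte markers, 5 measured, held 1 call against wild type, Car3 in TgSREBP-1a, which was lower (-2.57, pool means 7.63 against 10.20). The other 4 lay between -0.28 and 0.24 there. The sum of the 5 was 10.03 to 10.06 in TgSREBP-1a and 10.86 to 10.94 in TgSREBP-2, against 11.02 to 11.13 in wild type. Its lower value in TgSREBP-1a rests mainly on Car3 and cannot be read as a fall of adipocyte transcripts as a set. Of 5 enterocyte markers Apoa4, which liver also makes, was higher in all 3 mutant pools, and no other was called in these comparisons. Macrophage markers rose in TgSREBP-1a (5 of 10, against 4.78% of all genes) and in TgSREBP-2 (3 of 10, against 2.18%). Their sum was 12.12 to 12.19 in TgSREBP-1a and 11.80 to 11.90 in TgSREBP-2, against 11.43 in wild type. Macrophages express acyl-CoA synthetases and Lpcat3 too, and the part of these cells in the rises was not tested. In Scap-/- no macrophage marker was called by limma, with 2 of 10 at an unadjusted p under 0.05, and the sum was 11.94 to 11.96, against 11.98 to 12.07 in chow wild type. Of 7 endothelial markers Lyve1 and Cdh5 rose in TgSREBP-1a, and of 7 lymphocyte markers Ighm rose in TgSREBP-1a and fell in Scap-/-. Limma called 0 of 7 stellate cell and fibroblast markers in these 3 comparisons, with 4, 1 and 2 at an unadjusted p under 0.05.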

How the data were processed

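Liver RNA of 5 groups, each a pool of 5 mice (20 µg in all) hybridised to 2 arrays, was compared. The authors deposited 1 table of log2 signals for 12488 probe sets, made with RMA according to the submitters' processing notes. No RMA version is given in the sources used. The series' design text names Microarray Suite 5.0 instead, which gives linear signals. The values, 2.68 to 14.03 with array medians of 6.37 to 6.40, were used as normalized log2 signals. The number of arrays limits the precision, and detection calls were not used.

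Genes were assigned from GEO's platform annotation, and 10817 of 10833 probe sets with a single symbol could be brought up to date in RefSeq by their gene ID. The 66 controls, 396 probe sets with several symbols and 1193 with none were left out. The brightest probe set stood for each of 8251 genes.

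Limma 3.58.1 (R 4.3.3) was run on the 10 arrays together, each group having its own coefficient, which left 5 residual degrees of freedom. The 5 comparisons were adjusted over all genes by Benjamini-Hochberg. The fit was tested on simulated data. Intervals are 95% from the same fit, unadjusted. Same-numbered arrays deviated together within the high-protein set (correlations of 0.46, 0.61 and 0.60) and at 0.30 in the chow set, so the array number was added as a block, separately for each diet, in an alternative fit; it changed no call of the 4 enzymes. Others changed the probe set, a filter on dim genes, the normalization, an added 32, the variance prior and the arrays used.

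The enzymes and gene lists were chosen with earlier results of these data known. The genes named were the 4 enzymes, up to 6 called genes of the pathway list per comparison, the 3 genes most like each enzyme, and up to 3 of each comparison list. The marker genes and genes beside Gpam and Acsl5 were named after their values were seen. Promoter windows came from RefSeq (GRCm38.p6).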

Additional observations from a re-analysis of the deposited data

Results flagged for a closer look

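The effect of a transgene against the same wild type pool differed between the SREBP-1a and SREBP-2 pools for 3 of the 4 enzymes, by the direct comparison of the transgenic pools in limma. The log2 difference was 1.60 for Gpam, 1.22 for Acsl5 and 1.0 for Lpin1. For all 3 both TgSREBP-1a arrays lay above both TgSREBP-2 arrays, a separation that was not counted over all genes. No group had enough arrays to look for single outlying ones.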

How the results depend on the processing

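Each of the 20 differences of the 4 enzymes was recomputed under 12 alternatives. Each enzyme had 1 probe set, so the median and the dimmest probe set could not change its log2 difference. The filter on dim genes, the variance prior, the replicate block and the fit of only 2 pools left it unchanged too. Direction could therefore change only with quantile normalization, 32 added before log2 or an array left out. Of these 240 values 231 kept direction and call, 9 changed the call and 0 changed direction. Quantile normalization took Gpam between the wild type pools to -0.56 (adjusted p = 0.00106), under 1.5-fold. The other 8 came from leaving out 1 array, over which Acsl5 ranged from 0.73 to 1.0 in TgSREBP-2, from -0.86 to -0.77 in Scap-/- and from -0.64 to -0.36 between the wild type pools, and Lpcat3 from 0.40 to 0.71 in TgSREBP-1a minus TgSREBP-2. With only the arrays of the 2 chow-fed pools the Acsl5 decrease had an adjusted p of 5.83e-06. With the replicate block it had 2.64e-05. Lpin1 in Scap-/-, at 0.40 and under 1.5-fold, had 0.00511 with only those arrays and 0.0671 with the replicate block, and was called by neither. Lcat, at -0.71 in TgSREBP-1a minus TgSREBP-2, reversed to 0.05 on its dimmest probe set. Pathway genes called lower numbered 2 in TgSREBP-1a, but 1 with the median over probe sets, the dimmest probe set or 32 added before log2, and 1 to 4 with an array left out. In TgSREBP-1a minus TgSREBP-2 they numbered 4, but 2 with the median or dimmest probe set or only the arrays of the 2 pools, and 2 to 5 with an array left out. Between the wild type pools they numbered 2, but 1 with quantile normalization or 32 added, and 2 to 4 with an array left out, and the 2 called higher became 1 on the dimmest probe set. With an array left out, those called higher in TgSREBP-2 ranged from 3 to 8 and those called lower in Scap-/- from 3 to 4. With 32 added, genes of the whole array called lower numbered 21 of 32 in TgSREBP-2 and 237 of 358 between the wild type pools, and those called higher in Scap-/- 39 of 61. With an array left out, the counts over the whole array ranged from 110 to 234 higher and 21 to 48 lower in TgSREBP-2, with the lowest of the first without the first TgSREBP-2 array, from 39 to 50 higher in Scap-/-, and from 93 to 165 higher between the wild type pools. The causes of these shifts were not tested. With 1 pool per group, differences between mice could not be assessed.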
